A study of Mus musculus with 2 samples.

Results

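The distal chromosome ends of mouse embryonic stem (ES) cells were examined for 5-hydroxymethylcytosine (5hmC). For each of the 19 autosomes the largest peak end of either deposited list was taken as the distal end. A peak, which is a region enriched for 5hmC, was a member if its midpoint lay within 3000000 bp of that end on mouse build mm9. The peak that sets each end is itself a member. The rule used the positions of called peaks, and no tag count or fold enrichment. It found 2967 of 121661 peaks, namely 1405 of 57827 in one list and 1562 of 63834 in the other, in 57 Mb of sequence. The rest of the same chromosomes, from the first peak onwards, spans 2357 Mb and held 54960 and 60546 peaks.

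The 2 groups of 129SvEv ES cells were profiled with a biotin-based chemical pull-down of 5hmC, 1 library each. One was kept with ascorbic acid (AA, vitamin C) at 100 µM for 24 h, and the other carries no label for an incubation and was placed in the group without AA from the design of the series. The header inside each file names the other sample (2 of 2 files), so the lists are called AA-labelled and no-AA-labelled as recorded, and every direction between them would turn with the headers. The AA-labelled library had 11907082 tags (aligned reads kept once per position) and the no-AA-labelled library 18398162, or 1.55 times as many, with estimated fragment lengths of 229 and 165 bp. With 1 library a group no test between groups is possible. The intervals given are exact 95% intervals for counting error, or for the spread over peaks where a median is given. Only a ratio between the lists taken relative to the rest has an approximate interval.

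5hmC is made from 5-methylcytosine by the Tet dioxygenases, whose activity ascorbic acid is known to support, and in ES cells it lies largely in gene bodies and at distal regulatory elements. Mouse chromosomes carry the centromere close to one end, so the distal end of the assembly is the far end of the single long arm. Towards that end lies the subtelomere, followed by the telomere repeats that cap the chromosome. Such repeats and near-identical copies are hard to align. The peaks described here lie in assembled sequence, and whether any lie in such copies was not examined.

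Taken as one class, the distal 3 Mb differed little from the rest of the chromosomes. The AA-labelled list had 24.6 peaks per Mb there (23.4 to 26.0) and 23.3 in the rest (23.1 to 23.5), a ratio of 1.06 (1.00 to 1.11). The no-AA-labelled list had 27.4 (26.1 to 28.8) and 25.7 (25.5 to 25.9), a ratio of 1.07 (1.01 to 1.12). Single chromosomes moved these ratios: without chromosome 4 the AA-labelled ratio was 1.02 (0.961 to 1.07), and without chromosome 2 the other was 1.04 (0.982 to 1.09). Both ratios were below 1 when the comparison was limited to the next 20 Mb inwards, at 0.868 (0.820 to 0.918) and 0.906 (0.859 to 0.956). Peaks covered 2.98% of the distal sequence in the AA-labelled list and 2.50% in the other, against 2.78% and 2.30% in the rest. The distal densities include the peaks that set the ends, 10 AA-labelled and 9 in the other list. The ratios without these peaks were not computed.

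The peaks themselves were also of ordinary size and strength. Median length was 1046 bp in the AA-labelled list (quartiles 816 and 1415) and 796 bp in the other, against 1034 and 780 bp in the rest. Median tags per peak were 27 and 28, against 28 and 28. The fold enrichment is the authors' ratio of tags at the summit to the background of the same library. Its median was 7.86 at the AA-labelled ends and 7.78 elsewhere. The no-AA-labelled medians were 6.86 and 6.99. Of the AA-labelled distal peaks 291, or 20.7% (18.6% to 22.9%), were enriched 10-fold or more, where 21.7% of the whole list were. For the no-AA-labelled ends it was 147 peaks, or 9.41% (8.01% to 10.97%), beside 10.4% of the whole list. The most tag-rich peaks of the genome were not among them. The largest distal counts were 251 and 221 tags, while the rest reached 1496 and 1849.

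Single ends differed from each other. At the AA-labelled ends the count ran from 30 peaks on chromosome 17 to 120 on chromosome 4, a factor of 4. The no-AA-labelled distal counts ran from 37 on chromosome 17 to 118 on chromosomes 2 and 4, a factor of 3.19. The standard deviation over the 19 ends was 9.83 and 9.41 peaks per Mb. Averages over the rest of a chromosome vary less because they span more sequence, so each end was also placed among the 3-Mb windows of its own chromosome. It fell in the top 25% on 6 of 19 chromosomes in the AA-labelled list and on 5 in the other, and in the bottom 25% on 5 and 5. The ends were thus spread over the range of windows of this size. The density of an end bore little relation to that of its own chromosome. Over the 19 chromosomes the Spearman correlation was -0.04 in the AA-labelled list and 0.15 in the other, as a description of points that share a library.

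**Figure D1:**
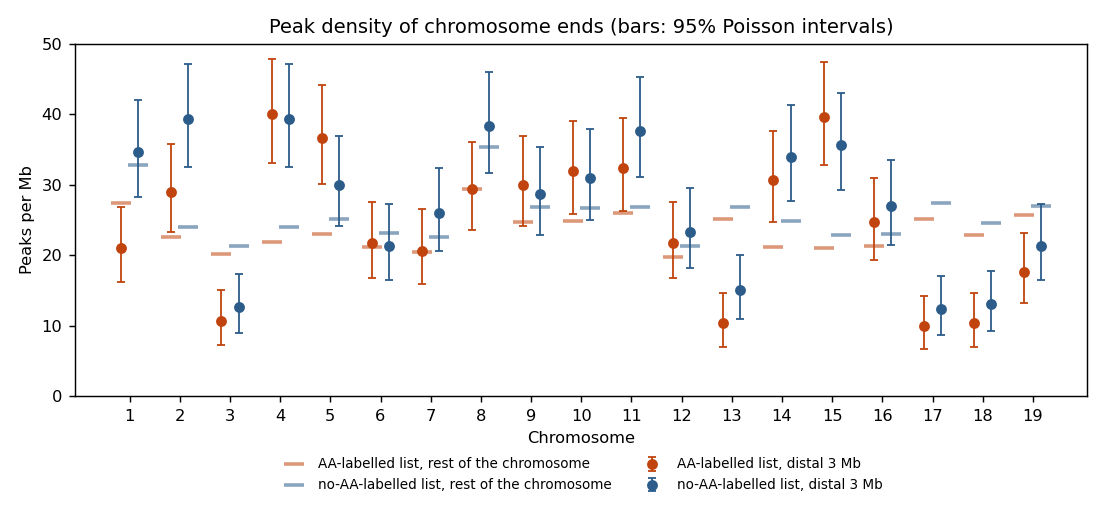
Peaks per Mb (vertical axis) in the distal 3 Mb of each autosome (horizontal axis), as points with 95% Poisson intervals, beside the rest of the same chromosome as short horizontal bars, for the AA-labelled list (orange) and the no-AA-labelled list (blue). The ends of chromosomes 3, 13, 17 and 18 lie far below the rest of their chromosomes in both lists, with 30 to 45 peaks in the 3 Mb, and that of chromosome 4 stands highest in the AA-labelled list, with 120.

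The ends of chromosomes 4, 15, 2, 11 and 14 were denser than the rest of their chromosomes, with the interval of the ratio above 1 in each list. On chromosome 4 (152629816 to 155629816) the counts were 120 peaks and 118 peaks (39.3 per Mb in the latter, 32.6 to 47.1), which was 1.83 and 1.64 times the rest of that chromosome. On chromosome 15 (100487191 to 103487191) the values were 39.7 and 35.7 peaks per Mb, or 1.89 and 1.56 times the rest. The ends of chromosomes 2, 11 and 14 had ratios of 1.29 and 1.64, 1.24 and 1.401, and 1.45 and 1.37. Among the 3-Mb windows of their own chromosomes, those of chromosomes 2 and 11 were less marked in the AA-labelled list. They were at the 72.4th and 69.7th percentile there and at the 94.0th and 92.1st in the other list. The end of chromosome 14 was at the 89.7th percentile in each list. Chromosome 5 had 36.7 AA-labelled peaks per Mb, 1.59 times the rest (1.30 to 1.92), with 110 peaks, but 90 peaks on the no-AA-labelled side, 1.19 times the rest (0.956 to 1.47). Chromosome 8 was dense at its end, at 29.3 and 38.3 peaks per Mb, with ratios to its rest of 0.996 (0.797 to 1.23) and 1.08 (0.892 to 1.30).

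Chromosome ends poor in peaks were those of chromosomes 17, 18, 13 and 3, and for these 4 the interval of the ratio lay below 1 in each list. Chromosome 17 (92258292 to 95258292) had 30 AA-labelled peaks and 37 in the other list (12.3 per Mb, 8.68 to 17.0), which was 0.398 and 0.449 times its rest. Chromosome 13 (117279910 to 120279910) had 31 and 45 peaks, or 0.411 and 0.558 times the rest. Chromosome 18 (87751869 to 90751869) had 31 and 39, or 0.452 and 0.530 times. Chromosome 3 (156445832 to 159445832) had 32 and 38, or 0.527 and 0.595 times. Chromosome 19 followed at 0.688 (0.513 to 0.905) and 0.790 (0.605 to 1.01). Among all consecutive 3-Mb windows of its own chromosome, the distal one had fewer AA-labelled peaks than 37 of 38 others on chromosome 13, 28 of 29 on chromosome 17 and 27 of 28 on chromosome 18. For no-AA-labelled peaks it was 33 of 38, 27 of 29 and 27 of 28. On chromosome 15 it had more than 31 of 32 others in the AA-labelled list and 28 in the other, and on chromosome 4 more than 47 and 45 of 49. Over the 19 chromosomes the median place of the distal window was the 60.5th percentile in the AA-labelled list and the 59.0th in the other.

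The direction against the rest of the chromosome was the same in both lists for 16 of 19 ends. It was upwards for 12 of 19 in the AA-labelled list and for 13 of 19 in the other. Chromosomes 1, 6 and 8 differed between the lists. On chromosome 1 (194168018 to 197168018) the AA-labelled end had 21.0 peaks per Mb, 0.765 times the rest (0.587 to 0.980), and the no-AA-labelled end 34.7, 1.06 times the rest (0.861 to 1.28). Over the 19 chromosomes the distal counts of the 2 lists correlated at 0.874 (Pearson) and 0.809 (Spearman), a description with no test.

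The names of the genes at these ends can be given only from the order of RefSeq genes on another build, GRCm38.p6, so no peak was placed on any of them. The last protein-coding genes of chromosome 4 in that order include Samd11, Noc2l, which encodes an inhibitor of histone acetyltransferases, and Klhl17. Those of chromosome 15 include Glycam1, Ppp1r1a, an inhibitor of a protein phosphatase, and Pde1b, a cyclic nucleotide phosphodiesterase, and those of chromosome 11 include Metrnl and Tbcd, a tubulin-folding cofactor. At the sparse ends, chromosome 17 has Mettl4 and Adcyap1, which encodes the neuropeptide PACAP. Chromosome 3 has Wls, needed for the secretion of Wnt proteins, and Rpe65, the retinoid isomerase of the visual cycle. Chromosome 18 has Tmx3, Dok6 and Cd226. Chromosome 13 has Tcstv3, BC147527, AF067061 and Gm21818.

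Within the last 3 Mb, the last Mb had fewer peaks than the Mb from 2 to 3, and these had a higher fold enrichment. Between 2 and 3 Mb from the end the AA-labelled list had 29.5 peaks per Mb (27.1 to 32.1), between 1 and 2 Mb 23.5 (21.3 to 25.8) and in the last Mb 20.9 (18.9 to 23.1). The no-AA-labelled values were 31.7 (29.2 to 34.3), 26.3 (24.0 to 28.7) and 24.3 (22.1 to 26.6). The last Mb thus had 0.709 times (0.622 to 0.808) and 0.766 times (0.677 to 0.866) the peaks of the Mb from 2 to 3. The stretch just inwards was denser, at 31.0 and 32.7 peaks per Mb from 5 to 10 Mb, and density was lower again further in, at 21.0 and 23.6 from 30 to 35 Mb. In each list 12 of 19 chromosomes had fewer peaks in the last Mb than from 2 to 3 Mb. More were found at 6 AA-labelled ends (chromosomes 2, 4, 6, 13, 17 and 18) and at 7 no-AA-labelled ends (the same and chromosome 3). The density was not lowest at the very end. In steps of 250 kb it was 17.5 (13.9 to 21.7) and 23.8 (19.6 to 28.6) per Mb from 0.75 to 1 Mb and 26.5 (22.1 to 31.6) and 29.9 (25.2 to 35.2) in the last 250 kb, where the rule places at least 1 peak on each chromosome by setting the end on it. Chromosome 17 had 4 and 5 peaks from 2 to 3 Mb and 16 and 18 in the last Mb.

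**Figure D2:**
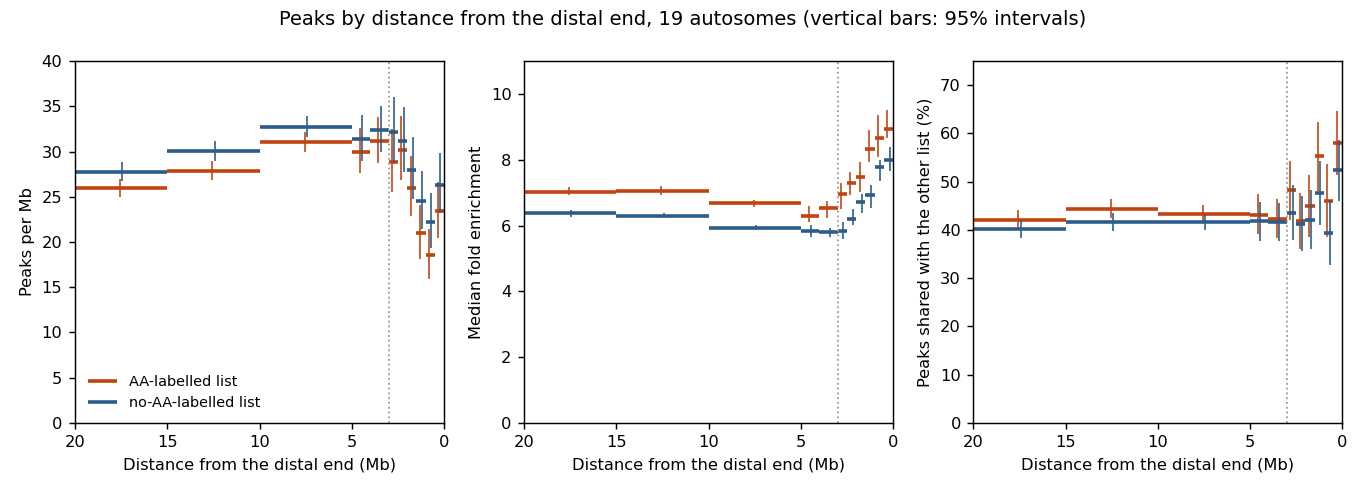
Peaks per Mb (left), median fold enrichment (middle) and percentage of peaks shared with the other list (right) by distance from the distal end in Mb, over all 19 autosomes, with 95% intervals as vertical bars and the 3-Mb limit dotted. Both lists are sparser and of higher fold enrichment in the last Mb than from 2 to 3 Mb, with medians of 8.91 against 7.10 and 8.00 against 6.06.

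The median fold enrichment in the last Mb was 8.91 in the AA-labelled list, against 7.10 from 2 to 3 Mb and 6.30 from 4 to 5 Mb. The no-AA-labelled medians were 8.00, 6.06 and 5.82 in the same stretches. It was higher in the last Mb than from 2 to 3 Mb on 16 of 19 chromosomes in each list. Peaks of at least 10-fold enrichment were more numerous in the last Mb in spite of the lower density, at 134 of 398 (33.7%) against 66 of 561 (11.8%) in the AA-labelled list and 75 of 461 (16.3%) against 27 of 602 (4.49%) in the other. The whole lists, at 21.7% and 10.4%, lay between these stretches. From 5 to 10 Mb the shares were 10.1% and 4.66%, near those from 2 to 3 Mb. Peaks with an authors' p of 1e-10 or less numbered 120 (30.2%) against 99 (17.6%) and 105 (22.8%) against 86 (14.3%), where 22.9% and 18.4% of the whole lists had such a p.

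The tags did not follow the fold enrichment. The median peak of the last Mb held 25 tags in the AA-labelled list and 24 in the other, and that of 2 to 3 Mb 32 and 33. It was shorter, at 950.5 against 1111 bp and 698 against 882.5 bp. Its tag density was lower too, at 2.09 against 2.32 and 1.83 against 1.98 tags per kb and 1000000 kept tags. Tags in peaks per Mb of sequence and 1000000 kept tags came to 56.2 in the last Mb and 93.3 from 2 to 3 Mb in the AA-labelled list, and to 39.3 and 65.6 in the other. The background that divides the fold differed along the same stretch. For 24.6% of the AA-labelled and 28.2% of the no-AA-labelled peaks of the last Mb, the fold was a whole number of tags over the genome-wide background. From 2 to 3 Mb this held for 7.66% and 11.3%. Among the other peaks, whose fold was not such a whole number, the medians were 8.28 against 6.93 and 7.33 against 5.79. The part of the background in the difference was not tested beyond this.

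Fold enrichment and density went in opposite directions between chromosomes as well. The AA-labelled medians were highest on the sparse chromosomes 18 (10.89), 17 (10.74) and 3 (10.46), and 9.12 on chromosome 13. The no-AA-labelled medians were 8.89, 9.06, 8.00 and 8.00 there. Chromosome 12 was also high, at 9.90 and 8.00, with 21.7 and 23.3 peaks per Mb. The ends of chromosomes 4 and 11 were lowest in both lists, at 6.11 and 5.31 and at 6.01 and 5.57. Over the 19 ends the Pearson and Spearman correlations of density with median fold enrichment were -0.89 and -0.86 for AA-labelled peaks and -0.87 and -0.86 for the others. These are descriptions of single libraries, and the fold is divided by a background that the density of the surroundings enters. The share of peaks whose fold was a whole number over the genome-wide background was 0.833% and 1.69% on chromosome 4, and 45.2% and 51.3% on chromosome 18.

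**Figure D3:**
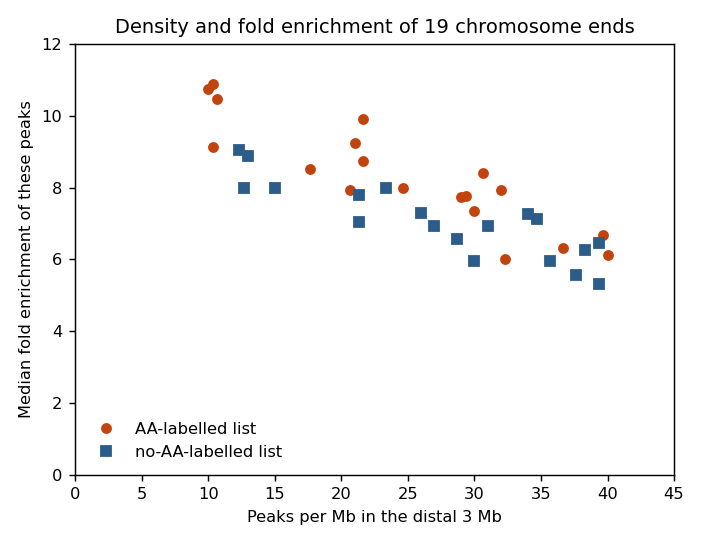
Median fold enrichment (vertical axis) against peaks per Mb (horizontal axis) of the distal 3 Mb, 1 point for each of 19 autosomes and each list (circles AA-labelled, squares no-AA-labelled). Sparse ends have the higher medians in both lists, as on chromosome 17 (10.74 and 9.06) against chromosome 4 (6.11 and 5.31).

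Taken over all 19 ends together, peaks were not spread evenly. In windows of 100 kb counted back from the end, 85 of 570 AA-labelled windows (14.9%) and 73 no-AA-labelled windows (12.8%) held no peak, against 19.5% and 16.7% in the rest of the chromosomes. The variance of the counts was 1.46 and 1.395 times their mean, against 1.66 and 1.63 in the rest. These counts pool all 19 chromosomes, so differences in density between ends enter the variance. The variance inside single ends was not computed. In 43 windows neither list had a peak. Of these, 8 were on chromosome 13, 7 on chromosome 17, 6 each on chromosomes 18 and 19, and 5 on chromosome 3. The longest stretch without a peak of either list was 458 kb on chromosome 13 (118256339 to 118714246), followed by 407 kb on chromosome 19 (59896175 to 60302757) and 314 kb on chromosome 17 (92695518 to 93009487). On chromosomes 2, 4 and 15 no such stretch was longer than 69.0, 84.0 and 84.2 kb. The fullest windows were on chromosome 8 (129035970 to 129135969), with 8 and 10 peaks, on chromosome 15 (101787192 to 101887191), with 10 and 7, and on chromosome 14 (122679769 to 122779768), with 10 and 6.

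**Figure D4:**
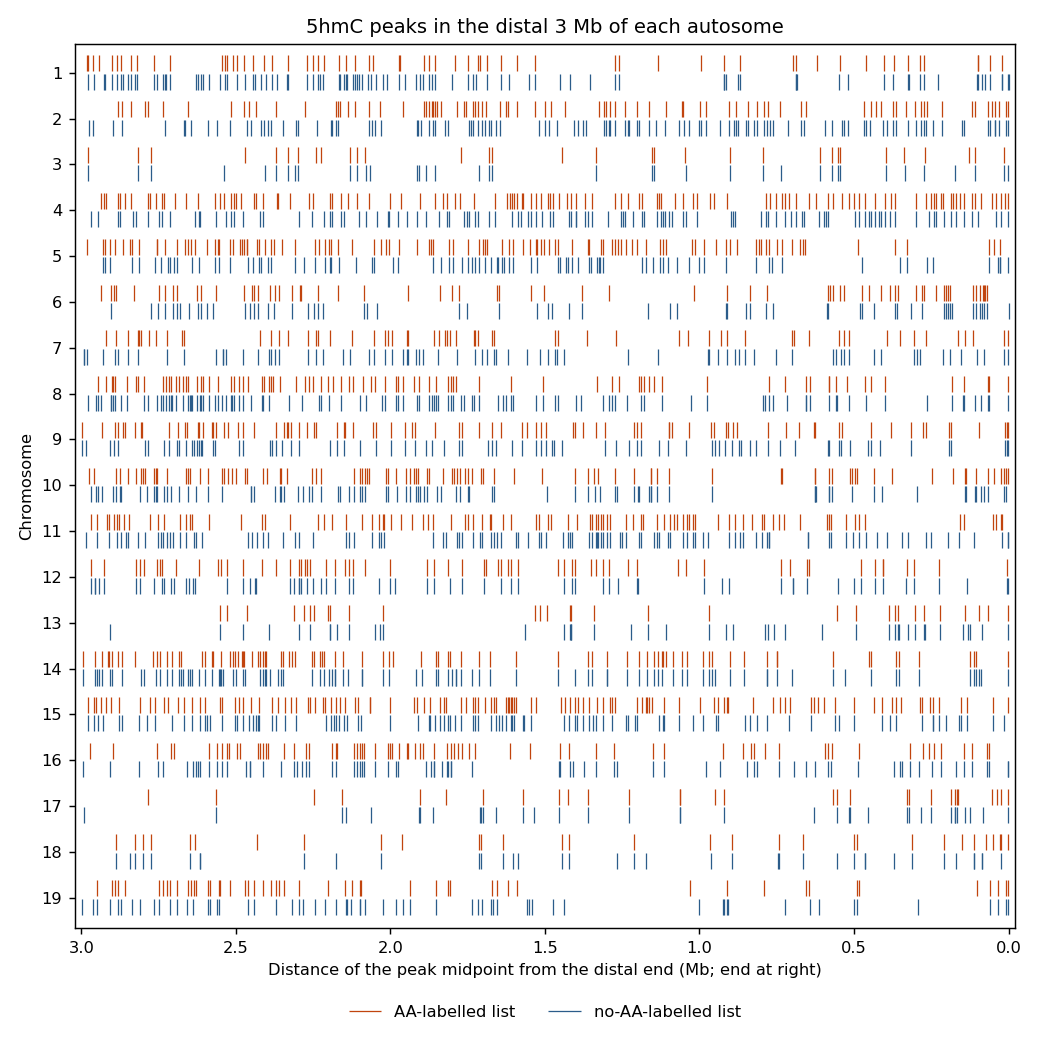
Position of every peak in the distal 3 Mb of the 19 autosomes, as distance of its midpoint from the distal end in Mb (end at the right), with AA-labelled peaks (orange) above no-AA-labelled peaks (blue) in each row. Chromosomes 3, 13, 17 and 18 are sparse, chromosome 13 shows the empty stretch of 458 kb, and chromosome 4 is filled along its whole length.

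The lists had about as many places in common at the ends as elsewhere. Of the AA-labelled distal peaks 683, or 48.6% (46.0% to 51.3%), overlapped a no-AA-labelled peak by at least 1 bp, where 47.5% of the whole list did and 47.0% of the rest of the autosomes. Of the no-AA-labelled distal peaks 692 were shared, or 44.3% (41.8% to 46.8%), against 43.6% of the whole list and 43.2% of the rest. In steps of 250 kb the share varied along the ends without a steady trend. In the last 250 kb 78 of 126 AA-labelled peaks (61.9%, 52.8% to 70.4%) and 80 of 142 no-AA-labelled peaks (56.3%, 47.8% to 64.6%) were shared, a stretch chosen after its values were seen. From 0.5 to 0.75 Mb the shares were 40.9% and 38.8%, and from 1.25 to 1.5 Mb 58.7% and 47.7%. In steps of 1 Mb the shares rose towards the end, with overlapping intervals of neighbouring steps. They were 44.9% and 42.4% from 2 to 3 Mb, 49.6% and 44.7% from 1 to 2 Mb, and 52.8% and 46.4% in the last Mb. In the AA-labelled list the last Mb had the higher share on 15 of 19 chromosomes and the lower on 4. In the other list it was higher on 12 and lower on 6. By chromosome the AA-labelled share ran from 36.4% on chromosome 5 to 71.9% on chromosome 3. The 4 sparse ends lay between 54.8% and 71.9% there and between 37.8% and 60.5% on the no-AA-labelled side, and the end of chromosome 14, which is dense, reached 68.5% and 61.8%. Without chromosome 14 the distal share exceeded that of the rest by 0.329 percentage points in the AA-labelled list and by -0.157 points in the other.

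The most distal peak of the 2 lists was the same region on 9 of 19 chromosomes: 2, 4, 7, 8, 9, 13, 14, 17 and 19. There the 2 ends differed by 11 to 404 bp. These peaks set the ends of the windows and are therefore given as a description. On chromosome 19 they lay at 61333453 to 61334121, with 21 tags at 13.29-fold, and at 61333475 to 61334110, with 26 tags at 11.56-fold. On chromosome 9 the last peak was among the most tag-rich of all ends. It held 126 AA-labelled tags over 2497 bp (123842757 to 123845253) at 7.96-fold and 218 no-AA-labelled tags (190 to 249) over 2010 bp (123842840 to 123844849) at 10.04-fold. On the other 10 chromosomes the last peaks lay 4122 to 67863 bp apart. There the outer of the 2 lies beyond the other list and cannot be shared. The inner one was shared at 9 of 10 ends, chromosome 15 being the exception. On chromosome 6 the inner, AA-labelled one (149430444 to 149431305) had 26 tags at 16.83-fold. The end of the window was set by the AA-labelled list on 10 chromosomes and by the other on 9. At the inner limit of the window the AA-labelled peaks nearest to it were on chromosome 9, with 27 tags at 9.10-fold 1140 bp inside (120845856 to 120846930) and with 45 tags at 8.12-fold 5517 bp outside (120839223 to 120840249). In the other list they were on chromosome 9, with 21 tags at 8.12-fold 1177 bp inside, and on chromosome 8, with 22 tags at 5.88-fold 1930 bp outside.

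The strongest distal peak by fold enrichment was the same in both lists. It lay on chromosome 14, 112 kb from the end, at 125067449 to 125067875 with 24 AA-labelled tags (15.4 to 35.7) and 23.76-fold, and at 125067525 to 125067942 with 34 no-AA-labelled tags (23.5 to 47.5) and 28.46-fold. It was a compact peak of 427 and 418 bp, well under the median lengths of 1046 and 796 bp. A further 2 of the 5 strongest AA-labelled peaks were on chromosome 14, at 124139186 to 124140042 (29 tags, 21.78-fold) and 124890520 to 124891420 (37 tags, 20.15-fold). Both were shared, with 30 and 37 no-AA-labelled tags at 10.67-fold and 9.26-fold. The remaining AA-labelled ones were on chromosomes 15 (103260434 to 103261185, 46 tags, 23.29-fold) and 3 (157315339 to 157316049, 34 tags, 22.25-fold). The next no-AA-labelled ones were on chromosome 3 (158650841 to 158651683, 36 tags, 18.45-fold), chromosome 2 (181664779 to 181665587, 69 tags, 16.93-fold), chromosome 3 again (157775412 to 157776218, 35 tags, 16.16-fold) and chromosome 6 (147281398 to 147282023, 32 tags, 15.81-fold). The region on chromosome 2 lies 32.3 kb from the end and had 92 AA-labelled tags over 1996 bp at 16.77-fold. Of these 10 peaks 9 were shared, the exception being that on chromosome 6, where 47.5% and 43.6% of the whole lists were shared. The peaks were picked for their fold enrichment, and the chromosome 14 region counts once in each list. The share among equally strong peaks elsewhere is not given.

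The peaks with most tags were long, and their fold enrichment ranged from 3.03 to 10.04, the latter at the last peak of chromosome 9 described above. On chromosome 16 both lists had one at nearly the same place, 2586 kb from the end, with 229 AA-labelled tags (95730172 to 95732959, 6.44-fold) and 221 no-AA-labelled tags (95730376 to 95732941, 6.83-fold). On chromosome 10 an AA-labelled peak of 5708 bp (127028506 to 127034213) held 251 tags (221 to 284) at 4.40-fold and overlapped no peak of the other list. On chromosome 11 the longest AA-labelled peak, of 6223 bp (120076532 to 120082754), held 166 tags at 3.32-fold and was also unshared. On chromosome 4 an AA-labelled peak of 4789 bp (155508022 to 155512810) held 219 tags at 4.55-fold, and its partner held 74 over 1510 bp. The longest no-AA-labelled peak, of 4924 bp on chromosome 15 (100614922 to 100619845), held 205 tags (178 to 235) at 3.03-fold and was unshared, as was one of 4234 bp on chromosome 4 (155030015 to 155034248) with 180 tags at 3.49-fold. The 3 longest in each list lay on chromosomes 10 and 11 and on chromosomes 4 and 15.

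The strongest peaks called in one list alone reached 18.13-fold and 15.81-fold, below the 23.76-fold and 28.46-fold of the strongest shared one. On the AA-labelled side they were on chromosome 8 (130540692 to 130541687, 31 tags, 18.13-fold), chromosome 18 (90599044 to 90600429, 47 tags, 15.45-fold) and chromosome 12 (120003200 to 120004221, 20 tags, 14.85-fold). On the other side the peak on chromosome 6 named above was followed by a pair on chromosome 12, at 120735003 to 120735644 (22 tags, 15.12-fold) and 120682434 to 120683174 (32 tags, 14.23-fold). The tags of the other library at such places are not listed, and no ratio was formed.

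The number of peaks at the ends differed between the lists as it did elsewhere. Peak number in the AA-labelled list over that in the other was 0.899 (0.836 to 0.967) in the distal 3 Mb and 0.908 (0.897 to 0.918) in the rest, and the first divided by the second was 0.991 (0.921 to 1.07). Single ends ranged from 0.606 (0.436 to 0.836) on chromosome 1, with 63 and 104 peaks, to 1.22 (0.917 to 1.63) on chromosome 5, with 110 and 90 peaks. Relative to the rest of the same chromosome, these were 0.724 (0.529 to 0.993) and 1.33 (1.01 to 1.77), and no other of the 19 intervals excluded 1. These relative intervals are approximate, those of chromosomes 1 and 5 end close to 1, and they are not adjusted for their number. More AA-labelled than no-AA-labelled peaks lay at 6 of 19 ends, on chromosomes 4, 5, 6, 9, 10 and 15. On chromosome 1 the difference was largest from 2 to 3 Mb, with 30 and 56 peaks.

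**Figure D5:**
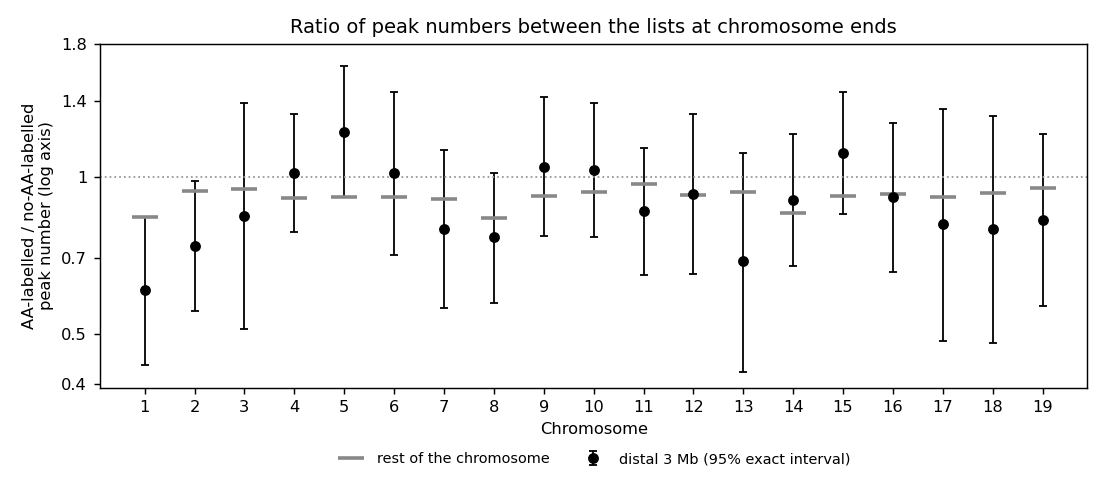
AA-labelled peak number divided by that of the other list (vertical log axis) in the distal 3 Mb of each autosome (points with 95% exact intervals) and in the rest of the same chromosome (grey bars). The points lie on both sides of the grey bars, with chromosome 1 lowest at 0.606 and chromosome 5 highest at 1.22.

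Where both libraries had a peak, tag density per kb and 1000000 kept tags differed between them by a similar amount at the ends and elsewhere. In 674 distal pairs that overlapped one to one the median was 2.31 in the AA-labelled and 2.01 in the no-AA-labelled library, with a median of the log2 ratios of 0.20 (interval 0.18 to 0.24), which is 1.15-fold. In the 25353 pairs of the rest it was 0.22 (0.21 to 0.22). The AA-labelled density was the higher in 514 distal pairs, or 76.3% (72.9% to 79.4%), where 75.2% of all pairs were. It was over 2-fold higher in 12 pairs, or 1.78% (0.923% to 3.09%), where 1.47% of all pairs were, and over 2-fold lower in 0 of 674, which allows up to 0.546% (upper exact bound), where 0.0223% of all pairs were. The sign of the median depended on the scaling. It was -0.42 without scaling and -0.32 with scaling to the tags inside peaks.

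The median log2 ratio was above 0 at each of the 19 ends with the scaling to kept tags, from 0.10 on chromosome 12 (36 pairs) to 0.40 on chromosome 14 (63 pairs). It did not change in a steady way with distance, at 0.20 (0.16 to 0.25) in the last Mb, 0.18 (0.13 to 0.23) from 1 to 2 Mb and 0.25 (0.20 to 0.28) from 2 to 3 Mb. The intervals of neighbouring stretches overlapped.

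In 463 distal pairs 1 library or both had 30 tags or more. Among these the largest ratios were on chromosomes 15, 3 and 8. The chromosome 15 pair, the AA-labelled peak of which is the second strongest named above, had 46 and 20 tags and a log2 ratio of 1.65 (0.87 to 2.49). The chromosome 3 pair at 157315339 had 34 and 14 tags and a ratio of 1.43 (0.49 to 2.44). The chromosome 8 pair (131668403 to 131669524), 67.0 kb from the end, had 48 and 17 tags and a ratio of 1.23 (0.41 to 2.12). The lowest ratio was on chromosome 8 too (129228221 to 129229177), with 16 and 43 tags and -0.94 (-1.87 to -0.08). It was followed by chromosome 7 (150267796 to 150268832), with 21 and 56 tags and -0.60 (-1.40 to 0.14), and chromosome 3 (156466025 to 156467833), with 37 and 28 tags and -0.56 (-1.31 to 0.20). For the last of these the peak lengths were 1809 and 601 bp, and in tags per peak the ratio was 1.03 (0.28 to 1.79). As extremes of 463 pairs they were picked for their ratios, for which the intervals make no allowance.

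The centromere-proximal 3 Mb after the first peak of each chromosome was compared as the opposite end, and it is part of the rest used above. Its density was 25.7 and 29.8 peaks per Mb, and the distal density was 0.960 times (0.892 to 1.03) and 0.919 times (0.858 to 0.985) that. Peaks of at least 10-fold enrichment were more frequent at the proximal end, at 24.5% (22.4% to 26.8%) and 14.1% (12.4% to 15.8%). The distal shares of 20.7% and 9.41% were the nearer to those of the whole lists, 21.7% and 10.4%. The highest tag counts differed more, at 251 and 221 tags distally and 1472 and 815 proximally. The highest tag density of a distal peak was 6.90 and 5.90 tags per kb and 1000000 kept tags, and that of a proximal peak 27.5 and 20.4.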

How the data were processed

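Per the submitters' processing notes, the authors used BWA 0.5.9-r16, build mm9 and MACS 1.4.2. Each list came from 1 library without a control, at a p cutoff of 1e-05, a regional background of 10000 bp and 1 tag per position, per the file headers. The treatment of reads that align to several places is not given in the sources used here, and it matters near chromosome ends. The deposited tag counts are whole numbers, unscaled. The deposited score is 10 times the −log10 of the p-value, and the deposited fold enrichment is a ratio to the background of the same library. The lists hold called regions only.

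Peaks were matched at 1 bp of overlap or more. Pairs overlapping one to one were compared by tags per kb and 1000000 kept tags. The genome-wide background was kept tags times fragment length over the effective genome of 2.7 Gb in the headers, and a fold times it counted as whole within the rounding of the fold. Intervals were Poisson, Clopper-Pearson or conditional on a sum of counts, and order statistics for medians. For ratios of peak number between the lists relative to the rest, they were the approximate interval of the sample odds ratio. Tags carry no molecular identifiers, so they may not be separate molecules. Python 3.11.15, pandas 2.3.3, NumPy 2.4.6, SciPy 1.17.1 and matplotlib 3.10.9 were used, and the code was tested on simulated lists.

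The member rule and all lists were chosen with earlier results of these data known. Named regions were, in each list, the 5 distal peaks of highest fold, the 3 with most tags, the 3 longest and the 3 unshared of highest fold. Named pairs were the 5 of highest mean fold and the 3 highest and 3 lowest tag density ratios with at least 30 tags in 1 library. The rule further named every chromosome with its last peaks and the 3 fullest windows of 100 kb. Of the pairs of highest mean fold, all 5 contain a peak named singly. No mm9 genome or annotation was used here, so no sequence is shown. Alternatives were other window widths, cutoffs, overlap rules, scalings and definitions of the rest.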

Additional observations from a re-analysis of the deposited data

How the results depend on the processing

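No paired analysis was possible because there is a single library on each side, and leaving out a library was not an option. Alternatives for the last Mb against 2 to 3 Mb were chosen after seeing the data. Values are given for the AA-labelled list first.

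The width of the window decided the direction of the density ratio of 1.06 and 1.07 against the rest. It was 0.897 and 0.943 with 1 Mb, 0.951 and 0.982 with 2 Mb and 1.17 and 1.14 with 5 Mb. The ratio of covered sequence, 1.07 and 1.09, became 0.832 and 0.852, 0.928 and 0.941, and 1.28 and 1.24. The ratio of median fold enrichment, 1.01 and 0.981, became 1.15 and 1.14, 1.07 and 1.03, and 0.912 and 0.899. The shared percentage of the AA-labelled list, 1.60 points above the rest, was 5.75 points above with 1 Mb and -1.15 with 5 Mb. Against the next 20 Mb the density ratio was 0.868 and 0.906, and 6 and 7 chromosomes were denser at the end. At 10-fold enrichment or more the no-AA-labelled density ratio was 0.996. With 1 chromosome left out it ranged from 1.02 (without chromosome 4) to 1.10 and from 1.04 (without chromosome 2) to 1.10, and the interval then reached below 1 at the lower values.

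The last Mb had fewer peaks than 2 to 3 Mb (0.709 and 0.766), but more with a p of at most 1e-10 (1.21 and 1.22, intervals including 1) and more of at least 10-fold enrichment (2.03 and 2.78). The ratio of median fold, 1.25 and 1.32, was 1.19 in AA-labelled peaks not at the genome-wide background and 1.34 in shared no-AA-labelled peaks. With 1 chromosome left out it was at most 1.34 in the no-AA-labelled list.

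The median log2 tag density ratio of distal pairs, 0.20, was 0.54 per peak, -0.42 unscaled, -0.32 scaled to tags inside peaks, 0.24 for fold enrichment, 0.34 among pairs at p of 1e-10 or less and -0.20 with the lists exchanged. Its difference from the rest, -0.011, was 0.024 per peak and 0.038 for fold enrichment. Of 113 recomputed values 73 stayed within the interval of the reported value or, for counts, within 1.5 times. Some of the 73 could not move. Examples are the AA-labelled density ratio with lists of equal length, and the pair difference from the rest unscaled or scaled to tags inside peaks. Others of the 73 changed sign, where the interval includes no difference. The shared difference was -0.204 (AA-labelled, at 10-fold or more), and -0.108 (5 Mb), -0.282 (p of 1e-10 or less) and -0.157 (without chromosome 14) in the other list. The distal over rest ratio of peak numbers, 0.991, was 1.02 (5 Mb), 1.05 (10-fold or more), 1.01 (without chromosome 2) and 1.01 (lists exchanged), and the pair difference was 0.011 with the lists exchanged. Values with the lists exchanged are the main values swapped, inverted or with the sign turned, so they were fixed in advance. The cause was not tested for values that moved further. Depth differs 1.55-fold between the libraries, and a region absent from a list was not called there, which does not show that it lacks 5hmC.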
